A study of Mus musculus with 6 samples.

Results

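The oestrogen receptors and their relatives were followed in pancreatic islets of mice given the plasticiser bisphenol A (BPA), a weak oestrogen mimic, or vehicle alone. The group was set by gene name, with earlier results of these data known, and its rule uses no measured value. It holds the nuclear oestrogen receptor genes Esr1 and Esr2, the membrane receptor gene Gper1 and the oestrogen-related receptor genes Esrra, Esrrb and Esrrg. All probe sets annotated to 1 of these 6 genes were taken, dim ones included, which gave 14 of the 45101 probe sets on the array, and 6 of the 18193 genes with a probe set of their own. Each of 6 samples of islet RNA was hybridised to its own Affymetrix array for the 3′ end of transcripts. Both groups were OF1 male mice of 10 weeks, with no transgene named in the labels. The 3 controls received the corn oil vehicle (100 µL) and the 3 treated samples BPA in that oil. The labels do not agree on the treatment: injections of 50 µg/kg under the skin, 100 µg/kg/day in total, run for 4 days in the series' design and 2 days at that daily dose in the samples' protocol, while the BPA samples' source names give 1 nM for 48 hours. Islets were taken 16 hours after the last injection, per the design. The titles call the samples biological replicates. The number of mice behind each is not given, so p-values measure the spread between these samples.

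Esr1 and Esr2 encode the receptors ERα and ERβ, transcription factors that bind oestradiol and then DNA, and that also act at the membrane through kinases. In beta cells both are known to take part in insulin synthesis, insulin release and cell survival, and BPA acts on them. Gper1 encodes a G protein-coupled receptor that responds to oestradiol. The oestrogen-related receptors share the DNA-binding fold but have no known natural oestrogen ligand. They drive genes of mitochondrial respiration with the coactivators PGC-1α and PGC-1β, and Esrrg is known for its part in the functional maturation of beta cells. BPA is a known ligand of the protein encoded by Esrrg.

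The samples carried islet markers, with acinar signal beside them. The log2 of the summed signal of the endocrine markers was 17.84 to 17.98 on the 6 arrays, and that of the acinar markers 16.26 to 18.35. Such sums depend on the probes and do not give shares of cells. Ins2 and Gcg, which encode insulin and glucagon, Chga, which encodes the granule protein chromogranin A, and Iapp, which encodes amylin, read 14.74 to 15.32 (log2 signal) on all 6 arrays. Array medians lay between 6.55 and 6.65. Esrrg, Esrra, Esrrb and Gper1 had a probe set above the median of all probe sets (mean log2 signal above 6.605), 6 probe sets in all. For Esrrb and Gper1 it was an _x_at probe set, which holds probes that can match other transcripts. The remaining 8, with all 3 of Esr1 and the 1 of Esr2, lay below the median. No detection calls were used here. The bacterial TrpnX control probe sets read between 3.42 and 3.91, which gives an idea of the floor. A probe set's signal depends on its own probes, so levels of different receptors were not set against each other.

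No receptor probe set differed between BPA and control past limma's moderated test at an adjusted p under 0.05 over all 45037 probe sets without array controls, where 0% of all probe sets were called. At an unadjusted p under 0.05 there was 1 of 14, a probe set of Esr1, against 5.87% of all probe sets (3.43% higher and 2.44% lower after BPA). The groups did not overlap for 2 of 14, both higher after BPA, against 7.56% of all probe sets that were separated in that direction, 3.96% in the other and 11.5% in either. Both counts are near those shares and are no result about the receptors. Of the 14 differences 8 were above 0, with a median of 0.046 (log2), against a median of 0.018 and 54.9% above 0 among all probe sets. The smallest adjusted p of a receptor probe set was 0.837, and the smallest among all probe sets 0.808.

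**Figure D1:**
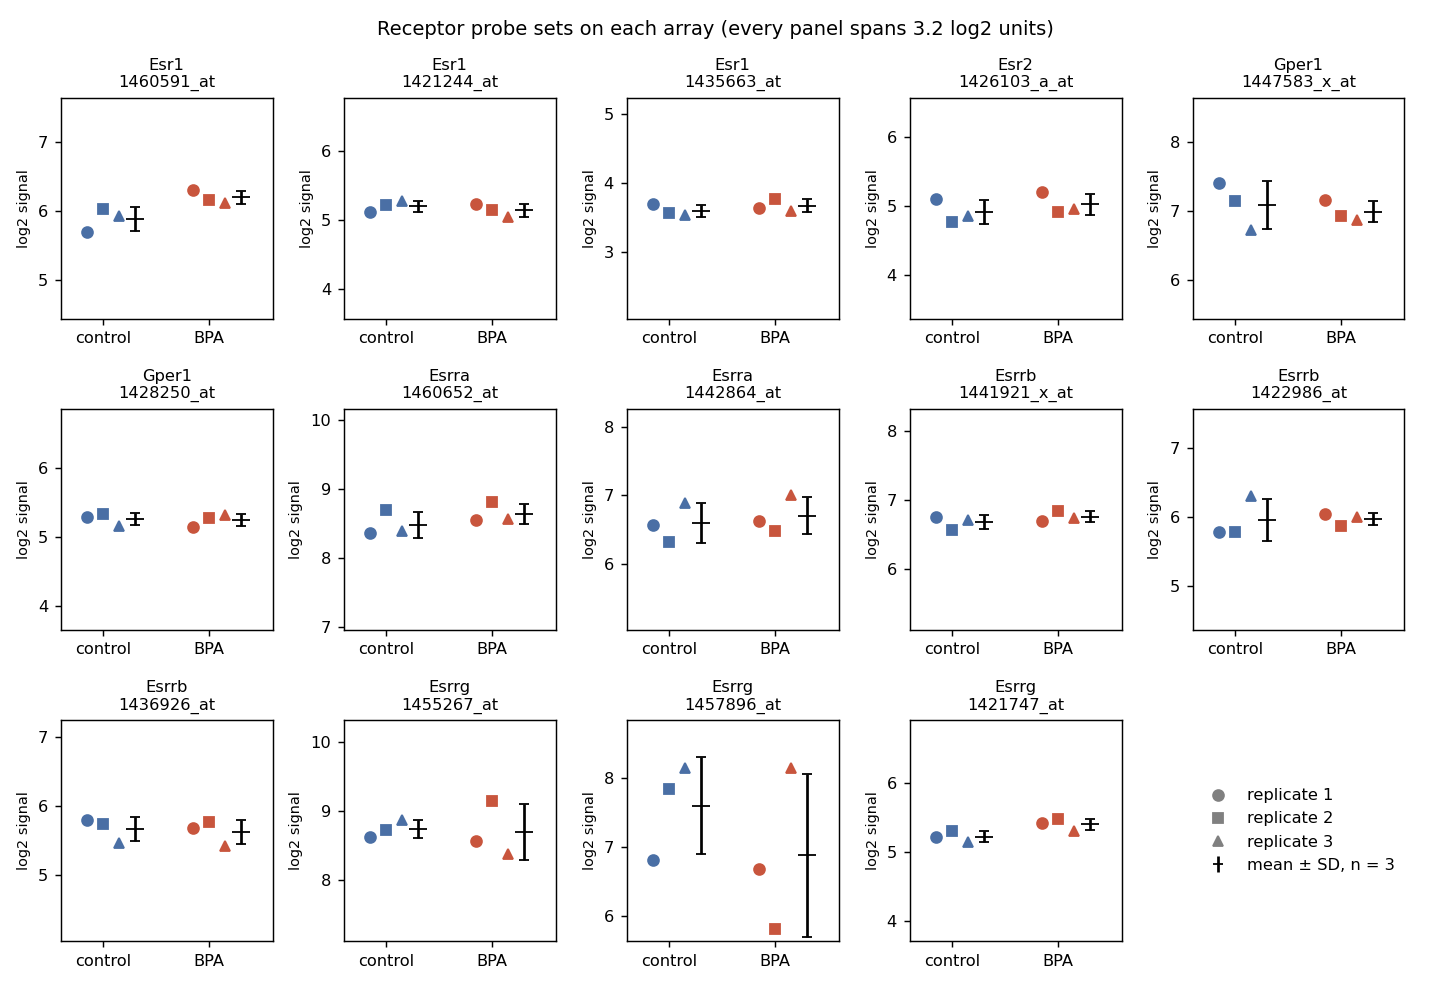
Log2 signal of each of the 14 receptor probe sets on the 3 control and 3 BPA arrays; marker shapes give the replicate number, and the bar beside each group is the mean ± SD (n = 3). The BPA arrays lie above the control arrays for Esr1 1460591_at and Esrrg 1421747_at, and Esrrg 1457896_at has the widest spread, from 5.81 to 8.15.

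Among the nuclear receptors for oestradiol, Esr1 gave the receptor probe set with the smallest p. Probe set 1460591_at read 5.70, 6.03 and 5.93 on the control arrays and 6.31, 6.17 and 6.13 on the BPA arrays, given here and below in the order of replicates 1, 2 and 3. All 3 BPA arrays lay above all 3 controls and the gap between the groups was 0.095. Group means were 5.89 ± 0.17 for control and 6.20 ± 0.10 for BPA (SD, n = 3 each), a difference of 0.31 ± 0.12 (log2, SE) with a 95% interval of 0.029 to 0.60. The unadjusted p of limma's test was 0.0351 and the adjusted p 0.837. It ranked 1872 of 45037 by p and 1881 from the top by signed difference.

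The other probe sets of Esr1 did not share this difference. Probe set 1421244_at read 5.12, 5.21 and 5.28 in controls and 5.23, 5.15 and 5.05 after BPA, with overlapping groups and a difference of -0.059 (95% interval -0.27 to 0.15). Probe set 1435663_at read 3.69, 3.56 and 3.52 in controls and 3.64, 3.77 and 3.60 after BPA, a difference of 0.077 (-0.10 to 0.26). Those values lie within the range of the TrpnX controls, and limma ranked them 17063 of 45037 by p. In the platform annotation 1435663_at and 1460591_at carry the same source sequence, so these probe sets of 1 source read 3.63 and 6.05 on average and differed between groups by 0.077 and 0.31. The mean of the gene's 3 probe sets differed by 0.11 (-0.058 to 0.28, adjusted p = 0.841 in limma over 18193 genes).

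Esr2, the ERβ gene, had 1 probe set, 1426103_a_at. It read 5.10, 4.77 and 4.86 in controls and 5.20, 4.92 and 4.95 after BPA. In both groups replicate 1 was highest and the groups overlapped. The difference was 0.11 ± 0.12 (log2, SE; 95% interval -0.18 to 0.40, adjusted p = 0.905 in limma), rank 19282 of 45037 by p. It was 0.025 without BPA replicate 1 and 0.21 without control replicate 1. Each BPA array lay above the control array of the same number, but the labels do not say that these numbers pair the samples.

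Gper1, the membrane receptor gene, had lower means after BPA on both probe sets, by less than their spread. The brighter one, 1447583_x_at, read 7.41, 7.14 and 6.72 in controls and 7.16, 6.93 and 6.87 after BPA. All 3 BPA arrays lay within the range of the controls. The difference was -0.10 (95% interval -0.56 to 0.35), rank 29101 by p. Probe sets with this suffix (_x_at) hold probes that can match other transcripts. The dimmer 1428250_at read 5.28, 5.33 and 5.15 in controls and 5.14, 5.27 and 5.31 after BPA, a difference of -0.015 (-0.24 to 0.21) that ranked 40257 by p.

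The oestrogen-related receptor genes followed the same picture of small differences, with 1 wide exception. Esrra encodes ERRα, the form most tied to mitochondrial respiration. Its probe set 1460652_at read 8.36, 8.69 and 8.39 in controls and 8.55, 8.82 and 8.57 after BPA. Replicate 2 was highest in both groups, and the difference of 0.16 ± 0.15 (log2, SE; 95% interval -0.18 to 0.51) had an adjusted p of 0.892 in limma and rank 15160 by p. The other, 1442864_at, read 6.57, 6.33 and 6.90 in controls and 6.63, 6.49 and 7.01 after BPA, with replicate 3 highest in each group. It differed by 0.11 (-0.35 to 0.57), rank 28411 by p. Replicate 3 lay above the mean of replicates 1 and 2 by 0.45 in controls and 0.45 in BPA arrays on this probe set. On 1460652_at the same differences were -0.14 in controls and -0.11 in BPA arrays.

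Esrrb encodes ERRβ, known from early embryos and the inner ear. Probe set 1441921_x_at read 6.75, 6.57 and 6.71 in controls and 6.69, 6.84 and 6.74 after BPA, a difference of 0.078 (95% interval -0.18 to 0.34, rank 24095 by p). Probe set 1422986_at read 5.79, 5.78 and 6.31 in controls and 6.04, 5.87 and 6.01 after BPA, a difference of 0.016 (-0.37 to 0.40, rank 42060). Control replicate 3 stood 0.53 above the mean of the other controls there. Probe set 1436926_at read 5.79, 5.73 and 5.46 in controls and 5.68, 5.76 and 5.42 after BPA, a difference of -0.043 (-0.36 to 0.28, rank 35409). Replicate 3 was the lowest array of each group on it, at -0.30 from the mean of the others in both. All 3 probe sets of Esrrb therefore had overlapping groups, and they did not share an order of arrays.

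Esrrg encodes ERRγ, and its 3 probe sets went different ways. The brightest, 1455267_at, read 8.62, 8.73 and 8.88 in controls and 8.56, 9.15 and 8.38 after BPA. BPA replicates 2 and 3 were the highest and the lowest of the 6 arrays, and the difference was -0.046 ± 0.21 (log2, SE; 95% interval -0.54 to 0.45, rank 38410 by p). The widest, 1457896_at, read 6.81, 7.84 and 8.15 in controls and 6.68, 5.81 and 8.15 after BPA. Its SD was 0.70 in controls and 1.18 after BPA, and its spread within groups was larger than that of 99.3% of all probe sets. The difference of -0.72 (95% interval -2.15 to 0.71, adjusted p = 0.888 in limma) was the 671st of 45037 by size, but only rank 13841 by p. Without BPA replicate 2 it was -0.19, and without BPA replicate 3 -1.35 (adjusted p = 0.345). Both replicate 3 arrays hold the same value on this probe set to every digit given. Such equal values occurred on 75 probe sets for this pair of arrays and on 53 to 80 for each of the 15 pairs.

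The dimmest probe set of Esrrg, 1421747_at, was the other one without overlap between groups. It read 5.23, 5.31 and 5.15 in controls and 5.42, 5.48 and 5.32 after BPA, and the gap between the groups was 0.0087. Means were 5.23 ± 0.08 for control and 5.41 ± 0.08 for BPA (SD, n = 3 each), a difference of 0.18 ± 0.09 (log2, SE; 95% interval -0.037 to 0.39). Limma gave an unadjusted p of 0.0912 and an adjusted p of 0.854, rank 4787. The signs of the 3 probe sets of Esrrg thus differ, and the mean over them was -0.20 (-0.60 to 0.21, adjusted p = 0.877).

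**Figure D2:**
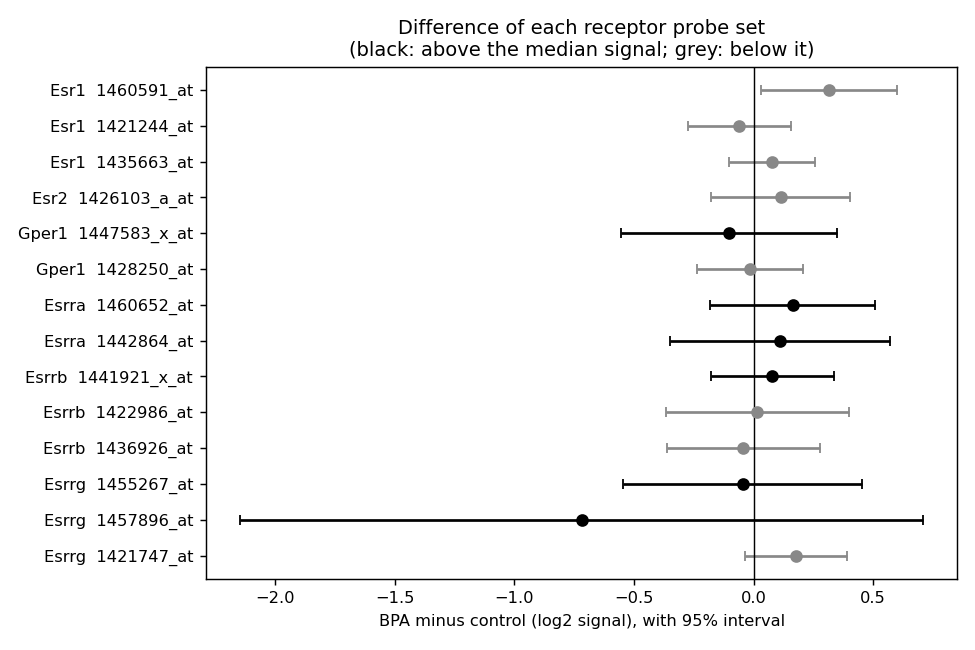
Difference between BPA and control in log2 signal for each receptor probe set, with its 95% interval from limma (n = 3 per group); black points have a mean signal above the median of all probe sets and grey points below it. The interval of Esr1 1460591_at, from 0.029 to 0.60, is the one that leaves out 0, and that of Esrrg 1457896_at, from -2.15 to 0.71, is the widest.

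The intervals give the size of change that these arrays could have missed. For 13 of 14 probe sets the 95% interval lay between -1 and 1 on the log2 scale, with Esrrg 1457896_at as the exception. On either side of the difference the interval reached from 0.18 for Esr1 1435663_at to 1.43 for that probe set of Esrrg. Array signals near the floor are known to understate changes, so a narrow interval on a dim probe set bounds the signal and not the transcript. In RNA of whole islets, fewer cells of a type and less RNA per cell cannot be told apart.

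**Figure D3:**
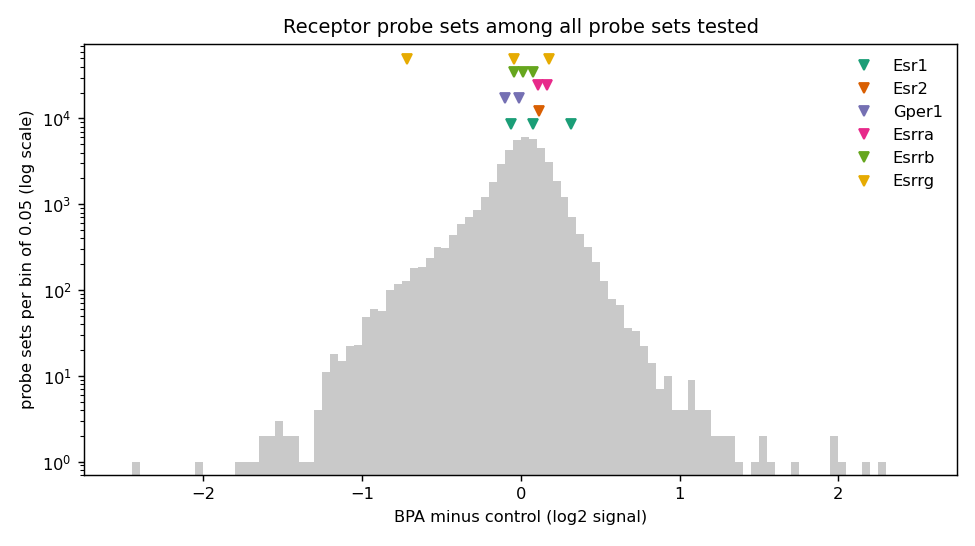
Grey bars count all 45037 probe sets by their difference between BPA and control in log2 signal, in bins of 0.05 on a log scale; triangles mark the 14 receptor probe sets, 1 row per gene. Apart from Esrrg at -0.72 and Esr1 at 0.31, the receptor probe sets lie between -0.10 and 0.18, where most probe sets lie.

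Over all probe sets the 5th and 95th percentiles of the difference were -0.40 and 0.29. Of the receptor probe sets, Esr1 1460591_at lay above that range and Esrrg 1457896_at below it. Values that moved with the groups stand beside these. The excess of signal at the 3′ over the 5′ end, a sign of RNA and labelling quality, was averaged over 5 control transcripts. This mean was 2.80 to 3.09 (log2) in controls and 2.44 to 2.61 after BPA, with no overlap. Singly, 18S RNA, b-actin and Gapdh were also lower after BPA without overlap. Pyruvate carboxylase (3.98 to 4.26 in controls, 3.83 to 4.08 after BPA) and transferrin receptor (2.10 to 2.43 and 2.22 to 2.42) overlapped. The part of this excess in the differences of Esr1 and Esrrg was not tested. Of the markers for other cells, 14 of 14 measured acinar genes and 10 of 10 nerve and glia genes had higher means after BPA. So had 14 of 16 stellate cell and fibroblast genes and 12 of 16 immune cell genes, against 60.3% of all genes. In the remaining lists 3 of 6 duct, 7 of 11 endothelial, 4 of 7 fat cell and 6 of 14 endocrine genes were higher. The acinar list rested on control replicate 3: relative to the 6 arrays it averaged 0.31, 0.57 and -1.38 in controls and 0.87, 0.064 and -0.43 after BPA. Without that array, left out after seeing the data, 1 of 14 acinar, 9 of 10 nerve and glia, 11 of 16 stellate cell and 10 of 16 immune cell genes were higher. The mean acinar difference turned from 0.33 to -0.27. Control replicate 3 was also the lowest array for the nerve and glia, stellate cell and immune lists. Without it their mean differences fell from 0.32 to 0.15, from 0.32 to 0.16 and from 0.25 to 0.17. The log2 of the summed signal of the acinar markers was 16.26 to 18.19 in controls and 17.25 to 18.35 after BPA, that of the stellate cell markers 13.64 to 14.23 and 14.06 to 14.58. Nerve and glia markers had 11.08 to 11.50 in controls and 11.57 to 11.91 after BPA, without overlap, and immune markers 12.69 to 13.13 and 12.77 to 13.50. Their part in the receptor values was not tested either. None of these lists holds a marker at 0, since the signal has a floor.

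The genes whose pattern over the 6 arrays was most like each receptor's brightest probe set are given as a description, with Pearson's r over 6 arrays. They are the top of 19384 to 19386 probe sets compared, picked for the highest r, so their closeness is set by that choice. For Esr1 1460591_at they were Nrbp1 (r = 0.9991), Bcap31 (0.9987) and Anxa7 (0.9974), and 302 probe sets (1.56%) had r above 0.9. For Esr2 they were Ppt1 (0.989), Pole2 (0.988) and Csf1 (0.986), with 0.557% above 0.9. For Gper1 they were Vezt, Lrwd1 and Nup50 (0.996, 0.994 and 0.992), and for Esrra Antxr1, Hhatl and Fech (0.997, 0.993 and 0.992). Esrrb was nearest to Coro2b, Suclg2 and Cln8 (0.994, 0.989 and 0.987), and Esrrg 1455267_at to Aars2, Tshz2 and Plagl2 (0.989 each). None of these 18 genes is itself a receptor of the group.

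The receptors' DNA elements place the target genes beside these values. Oestrogen receptors bind an inverted repeat, GGTCA and TGACC with 3 bases between them, and oestrogen-related receptors the extended half-site TCAAGGTCA. Promoter windows from RefSeq (GRCm38.p6, from -250 to 50 bases around each start) were searched on both strands. The 6 receptor genes had 11 windows. None of them held either element or the half-site AGGTCA, a part of the second element that occurs in 16.3% of all 32851 windows. That says only that these letters are not in those windows. The full element TCAAGGTCA occurs in 0.423% of windows and the inverted repeat in 0.07%. The lists of receptor pathway genes below were searched for TCAAGGTCA alone, and not for the inverted repeat. Among 37 mitochondrial targets with a window, it was found in Sdhd, which encodes a subunit of respiratory complex II. Among 28 oestrogen-responsive genes with a window, it was found in 2 windows of the kinase gene Sgk1. The other lists held none. These windows are printed 5′ to 3′ on the strand of the gene, with the element in capitals (TGACCTTGA where it lies on the opposite strand).
Sdhd, chr9:50603800-50604099, minus strand: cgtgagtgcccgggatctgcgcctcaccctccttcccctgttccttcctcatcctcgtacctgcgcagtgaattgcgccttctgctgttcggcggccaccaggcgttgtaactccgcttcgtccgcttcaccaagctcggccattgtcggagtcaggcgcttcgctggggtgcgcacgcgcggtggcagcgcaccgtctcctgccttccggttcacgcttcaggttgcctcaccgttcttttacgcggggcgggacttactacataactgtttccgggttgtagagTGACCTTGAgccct
Sgk1, chr10:21978422-21978721, plus strand: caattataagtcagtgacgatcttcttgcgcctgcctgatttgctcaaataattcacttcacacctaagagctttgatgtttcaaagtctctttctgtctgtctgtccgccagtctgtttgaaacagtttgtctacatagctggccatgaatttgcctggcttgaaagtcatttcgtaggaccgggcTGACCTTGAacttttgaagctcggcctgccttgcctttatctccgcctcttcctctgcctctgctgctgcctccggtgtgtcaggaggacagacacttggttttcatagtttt
Sgk1, chr10:21985854-21986153, plus strand: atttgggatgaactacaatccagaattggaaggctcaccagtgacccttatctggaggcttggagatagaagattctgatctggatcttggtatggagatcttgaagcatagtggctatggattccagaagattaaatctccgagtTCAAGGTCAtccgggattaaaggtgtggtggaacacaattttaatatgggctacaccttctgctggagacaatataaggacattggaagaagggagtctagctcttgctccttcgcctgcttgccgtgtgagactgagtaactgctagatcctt
Sdhd read 10.51, 10.63 and 10.40 in controls and 11.25, 11.02 and 10.58 after BPA. BPA replicate 3 lay within the controls, and the difference was 0.44 ± 0.18 (log2, SE; unadjusted p = 0.0475, adjusted p = 0.843 in limma). Sgk1 read 11.35, 11.89 and 11.80 in controls and 11.88, 11.37 and 11.80 after BPA, a difference of -0.0029 ± 0.1925. A match describes the letters and shows no binding.

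Genes that work with the receptors were taken from 7 lists, each gene by its brightest probe set. Of 238 listed genes 214 were measured, and 0 passed the test in either direction, against 0% of all 18193 genes. At an unadjusted p under 0.05 there were 14 (8 higher and 6 lower after BPA), 6.54% of those measured against 4.94% of all genes. The median difference over all genes was 0.036, and 60.3% were above 0. In each list named next, the genes given are the 2 with the smallest p in each direction, and the adjusted p of all of them was 0.808 or more.

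Nuclear receptor coregulators had 19 genes higher and 16 lower of 35 measured, with a median of 0.013. The corepressor deacetylase gene Hdac3 differed by 0.27 ± 0.11 (SE). The pioneer factor gene Foxa1, dim at a mean signal of 4.97, differed by 0.28 ± 0.12. The helicase coactivator gene Ddx17 differed by -0.27 ± 0.10 and the coactivator gene Ncoa7 by -0.38 ± 0.14. Both probe sets of Ncoa7 were lower (-0.38 and -0.34). Of the 3 of Ddx17 the bright ones were lower (-0.27 and -0.22), and a dim one (mean signal 5.54) differed by 0.087. Chaperones of steroid receptors, which hold the receptors ready for ligand, had 9 higher and 6 lower of 15, with a median of 0.051. Fkbp4, which encodes a co-chaperone of steroid receptors, differed by 0.44 ± 0.13, with its 3 probe sets between -0.18 and 0.44, and Cdc37 by 0.28 ± 0.14. Hsph1 differed by -0.25 ± 0.10 and Hsp90aa1, the chaperone itself, by -0.23 ± 0.10. The other probe set of Hsph1 differed by 0.12, and the 5 of Hsp90aa1 ran from -0.96 ± 0.25 (adjusted p = 0.808 in limma) to 0.064. Only the last of these lay above 0, and it was dim (mean signal 5.68).

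Genes of oestrogen synthesis and metabolism had 16 higher and 6 lower of 22, with a median of 0.087. Of these 22 genes only 10 had a signal above the median of all probe sets. Hsd17b10, which encodes a mitochondrial dehydrogenase that accepts steroids among other substrates, read 8.97, 9.19 and 9.20 in controls and 9.86, 9.62 and 9.81 after BPA. The groups did not overlap, and the difference of 0.64 ± 0.13 (SE) ranked 70 of 45037 by p with an adjusted p of 0.808 in limma. Its other probe set differed by 0.16. Cyp1a1, an oestrogen hydroxylase gene induced by the dioxin receptor, was dim and differed by 0.29 ± 0.13. Cyp3a11 differed by -1.74 ± 1.34, where control replicate 3 read 9.38 and the other 5 arrays 3.93 to 4.21. Hsd17b4 differed by -0.11 ± 0.14.

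Kinases, G proteins and partners of rapid oestrogen signalling had 16 higher and 16 lower of 32, with a median of 0.0049. Akt1 differed by 0.24 ± 0.12 with all 4 probe sets above 0, and Zdhhc7, which encodes a palmitoyltransferase that acts on steroid receptors, by 0.16 ± 0.12. Hbegf, the growth factor gene through which Gper1 reaches the EGF receptor, read 9.87, 9.55 and 9.22 in controls and 8.98, 9.18 and 8.82 after BPA. Its difference of -0.55 ± 0.19 (SE) had an unadjusted p of 0.0233 and an adjusted p of 0.837 in limma, and its other probe set differed by -0.0066. Gnas differed by -0.16 ± 0.08, with its 5 probe sets between -0.53 and 0.060, all but the named one dim (mean signal 6.34 or less). The other probe set of Zdhhc7, dim at a mean signal of 5.82, differed by -0.023.

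Mitochondrial targets of the oestrogen-related receptors had 25 higher and 19 lower of 44, with a median of 0.024. The ATP synthase gene Atp5o differed by 0.40 ± 0.12 and the cytochrome oxidase gene Cox7a2 by 0.20 ± 0.08, both with their 2 probe sets above 0. The carrier gene Slc25a4 differed by -0.16 ± 0.08 and the complex I gene Ndufs7 by -0.25 ± 0.14. The other 3 probe sets of Slc25a4 lay above 0 (up to 0.20), as did the other one of Ndufs7 (0.038). Genes known to respond to oestrogen had 18 higher and 13 lower of 31, with a median of 0.030. The protease gene Ctsd differed by 0.39 ± 0.14 and the receptor partner gene Ramp3 by 0.36 ± 0.15. Nrip1, which encodes a corepressor induced by oestrogen, differed by -0.33 ± 0.12. Pdzk1, dim at a mean signal of 5.78, differed by -0.23 ± 0.11. The 6 probe sets of Nrip1 ran from -0.33 to 0.093.

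Other members of the nuclear receptor superfamily had 16 higher and 24 lower of 40, with a median of -0.019 and 1 at an unadjusted p under 0.05. That one was Nr4a2, an orphan receptor gene induced by stimulation, at 8.92, 8.80 and 9.44 in controls and 7.72, 7.79 and 8.94 after BPA. BPA replicate 3 lay among the controls, and the difference was -0.90 ± 0.35 (SE, adjusted p = 0.837 in limma), with all 6 probe sets below 0 (-0.90 to -0.028). The clock receptor gene Nr1d2 differed by -0.44 ± 0.20, the oxysterol receptor gene Nr1h3 by 0.22 ± 0.13 and Ppara by 0.11 ± 0.09. The other probe set of Nr1d2, far dimmer (mean signal 5.33 against 11.42), differed by 0.18. For Ppara, dim at a mean signal of 5.68, a nearly equally bright probe set differed by -0.24 ± 0.11.

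**Figure D4:**
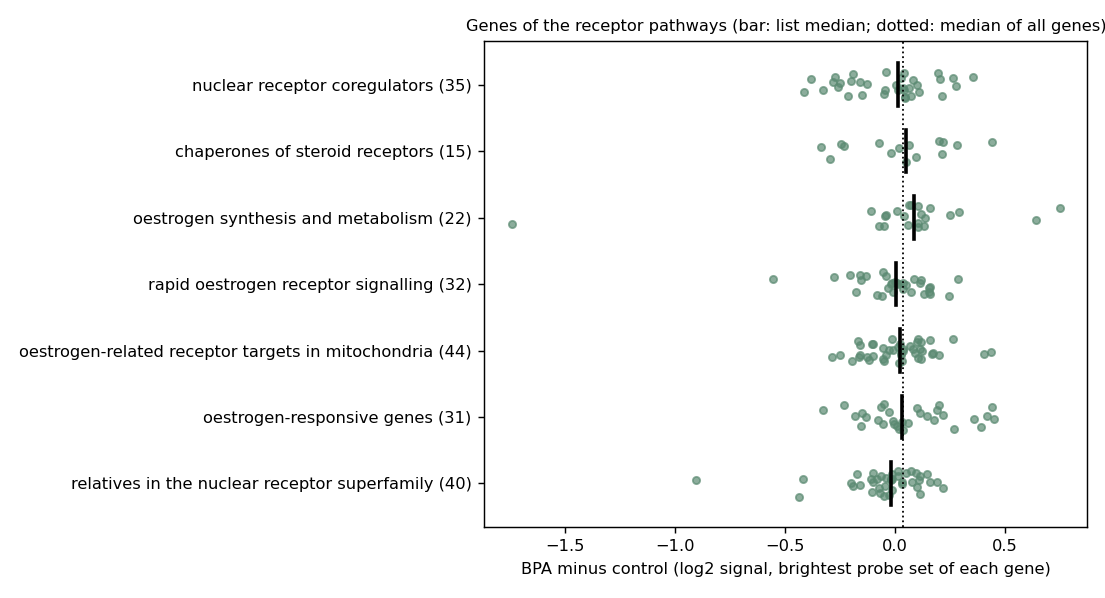
Difference between BPA and control in log2 signal for each measured gene of the 7 receptor pathway lists (number measured in brackets), by its brightest probe set; bars are list medians and the dotted line is the median of all genes, 0.036. List medians run from -0.019 to 0.087. All but that of oestrogen synthesis and metabolism changed sign under some alternative settings. That one fell to 0.00044 among probe sets above the 75th percentile of signal. The point at -1.74 is Cyp3a11.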

How the data were processed

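The values are log2 signals that the authors deposited, 1 per probe set and array, with similar medians on the 6 arrays. The submitters' processing notes name MAS5, with no version. The narrow low end of the values is unusual for MAS5 signals, and how probes were summarised and scaled is not stated there. That sets the spread of dim probe sets. Groups were taken from the sample titles. The table holds 45101 probe sets, and 64 of them are array controls, left out of the fit. Of the rest 34945 had 1 gene symbol in the platform annotation, 932 several, none of them a receptor of the group, and 9160 none.

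Values were used as deposited. BPA and control were compared with limma 3.58.1 in R 4.3.3 (lmFit and trended eBayes, two-sided, adjusted by Benjamini-Hochberg over 45037 probe sets, threshold 0.05), with no filter on dim probe sets, 3 arrays per group and 95% intervals. The test was tested on simulated data with independent noise on each array, so without the likeness of the replicate 3 arrays given below. Array number limits the precision. List genes were represented by their brightest probe set, and those named had the 2 smallest p per direction. Other genes were named for likeness (3 per receptor, probe sets above the median) or for the DNA element. The members and lists were chosen with earlier results of these data known. Alternatives were filters at the median and 75th percentile, 3 scalings, 3 variance models, a replicate block, arrays left out, other thresholds and gene means. Plots were made in Python 3.11.15 with matplotlib 3.10.9.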

Additional observations from a re-analysis of the deposited data

How the results depend on the processing

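With other filters, scalings and variance models, the replicate block, arrays left out and an adjusted p under 0.10, 0 probe sets in all, 0 receptor probe sets and 0 genes of the receptor lists were called. With gene means 0 receptors and 0 list genes were called. At an unadjusted p under 0.05 there were 2643, 1 and 15 (a gene in more than 1 list counted each time). Of 203 receptor values under an alternative, 185 kept their sign. With array medians subtracted Gper1 1428250_at was 0.0072, and under cyclic loess Esrrb 1422986_at was -0.013. The other changes of sign came from leaving out arrays, 1 at a time or both of replicate 3. Values then ran from -0.10 to 0.023 for Esr1 1421244_at, from -0.29 to 0.059 for Gper1 1447583_x_at, from -0.10 to 0.035 for Gper1 1428250_at, from -0.042 to 0.26 for Esrra 1442864_at, from -0.074 to 0.19 for Esrrb 1422986_at, from -0.14 to 0.058 for Esrrb 1436926_at and from -0.27 to 0.18 for Esrrg 1455267_at. The cause was not tested. Esr1 1460591_at stayed above 0, from 0.22 to 0.39, with adjusted p from 0.420 to 0.9996. The replicate numbers were not taken to pair the samples: same-numbered arrays deviated together with r of 0.40, 0.066 and 0.64, and control replicate 2 was closest to BPA replicate 1. Control and BPA replicate 3 were closer to each other over all log2 values (r = 0.993) than to their own groups (0.982 to 0.986). The main fit has no term for this. With the replicate block 0 probe sets were called, and Esr1 1460591_at had an adjusted p of 0.463. Of the receptor probe sets, Esr1 1435663_at alone lay in the range of the TrpnX controls, and the lack of detection calls limits what the other dim ones can show. Medians of 6 of the 7 pathway lists changed sign under some of 17 alternatives: chaperones ran from -0.061 to 0.093, coregulators from -0.041 to 0.037, rapid signalling from -0.013 to 0.035, mitochondrial targets from -0.022 to 0.080, oestrogen-responsive genes from -0.016 to 0.060 and other nuclear receptors from -0.098 to 0.019. That of oestrogen synthesis and metabolism stayed above 0, from 0.00044 with the filter at the 75th percentile to 0.11.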
